A study of Sus scrofa with 24 samples.

Results

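The comparison described here is that of secretome with medium in the infarct core, the scar left by a coronary occlusion in the pig heart. It uses 9 of the 24 arrays of the series, chosen by the region and treatment in their labels: the infarct cores of 6 pigs given secretome (pigs 11 to 16) and of 3 pigs given medium (pigs 10, 18 and 40). All were pigs labelled domestic, in which an infarct had been made with the chest closed and the vessel then reopened. They were pre-treated with 250 mg aspirin and 300 mg clopidogrel and kept on 100 mg and 75 mg a day. At 1 month after the infarct they were randomised to percutaneous injections into the heart muscle of either the secretome of apoptotic peripheral mononuclear cells, that is the factors such cells release into their medium, or of medium alone as placebo, and tissue was taken 1 month later. The labels place the injections in the border zone, so the scar was sampled beside the treated tissue. They give 8 randomised pigs an arm, and neither age nor sex. The other arrays hold 9 border zones of the same pigs and 6 normal regions. They enter here for the estimate of the spread of each probe and for the comparison of the scar with its border.

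A scar of this age is made of collagen-rich matrix laid down by activated fibroblasts, crossed by vessels and populated by macrophages and lymphocytes, with surviving heart muscle fibres at its rim and a mesothelial layer, the epicardium, over its outer face. Macrophages clear dead muscle and present antigen to T cells, and interferon gamma from T and NK cells in turn raises the antigen-presenting genes. A piece of scar can hold more or less of each of these tissues, and in a piece of tissue fewer cells of a type and less RNA per cell cannot be told apart.

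Total RNA was hybridised, 1 sample to an array, to Agilent 1-colour arrays with 60-base probes. Levels are log2 signals relative to the 75th percentile of the array (0 is that percentile), and differences are log2 secretome minus medium, so 1 unit is a doubling. On the 9 infarct cores 66.1% to 75.7% of probes were well above background, and precision is limited by how many arrays there are. In the scar against normal region, the 28 measured collagen and scar matrix genes had a median difference of 2.94 and the 18 sarcomere and calcium-handling genes one of -2.11 (all 6500 genes: -0.05), so the cores carried more scar and less muscle transcript than the normal regions, as labelled. The core of medium pig 40 stood apart. Its mean sarcomere level was 1.63, against 5.63 and 6.19 in the other medium cores and 5.02 to 7.60 in the secretome cores, so list medians that moved by over 1.5 times without that pig are also given without it. The arrays were scanned in 2 series. The first scan series took in 5 of the cores, those of pigs 18 and 40 (medium) with 12, 13 and 16 (secretome). The second took in 4, that of pig 10 (medium) with 11, 14 and 15 (secretome). Deviations from the arm means correlated at 0.503 on average between pigs of different arms in the same series (9 pairs). Between pigs of different arms and different series (9 pairs) the average was -0.493. Deviations cancel within each arm, so the second value largely follows from the first and is no separate observation. The arms were unequally spread over the series, so the comparison carries the series as a term. Differences within each series are given beside it.

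Few probes separated the arms, and nearly all of those that did were lower after secretome. With limma and Benjamini-Hochberg adjustment at 0.05, 15 of 33141 probes were called (0.0453%), of which 14 were lower (0.0422%) and 1 was higher (0.00302%). Taking the brightest probe of each of 6500 named genes, 6 were lower (0.0923%) and none was higher. At an unadjusted p under 0.05, limma had 522 genes lower (8.03%) and 251 higher (3.86%), and without pig 40 it had 235 and 61. The values of the arms did not overlap for 110 of 6493 genes lower after secretome (1.69%) and for 18 higher (0.277%). Where a gene does not differ, 1 of 84 assignments of the pigs (0.0119) still separates the arms in a given direction. Lack of overlap in a single gene thus shows little by itself. The 6 lower genes were SERPINE3, CLDN3, RPTN, the gene described on the array as immunoresponsive 1 homolog (mouse), COL17A1 and ALOX15. All 6 calls depended on medium pig 40 and on the series term: without that pig none of the genes passed, though their differences stayed between -0.80 and -4.69 with adjusted p of 0.13 to 0.24, and without the series term limma called no probe at all (1589 at an unadjusted p under 0.05). Fitting the 9 infarct cores alone with the series term also left no call (2720 at an unadjusted p under 0.05).

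The names of 4 of these genes rest on Ensembl or predicted transcripts of the array design, so their probes are shown as the array holds them. The RPTN probe carries that name on the array but is described there as a hypothetical protein. In the COL17A1 probe, capitals mark 6 glycine codons that recur every 9 bases, the repeat of a collagen triple helix.
SERPINE3: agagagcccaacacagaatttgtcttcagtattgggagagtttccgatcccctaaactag
RPTN: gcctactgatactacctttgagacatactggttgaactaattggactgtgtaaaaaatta
immunoresponsive 1 homolog (mouse): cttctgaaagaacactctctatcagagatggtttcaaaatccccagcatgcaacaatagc
COL17A1: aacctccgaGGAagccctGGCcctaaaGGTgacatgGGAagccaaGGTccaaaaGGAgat

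SERPINE3, a member of the serpin family of protease inhibitors, had levels of -2.02, -1.74 and -1.09 in medium pigs 10, 18 and 40. In the 6 secretome pigs it lay between -6.51 and -4.37, with a median of -5.27. No secretome core came within 2 log2 units of a medium core. The difference was -3.59 ± 0.51 (SE; limma adjusted p = 0.00595), a 12.0-fold lower signal, and it was -3.67 within series 1 and -3.50 within series 2. The transcript was well above background in all 3 medium cores and in 4 of 6 secretome cores. The authors' deposited log2 values gave a smaller difference for SERPINE3, -0.67, so the fold depends on the processing.

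CLDN3, claudin 3, a tight junction protein of epithelial sheets, had levels of -1.48, -1.77 and -0.65 in medium pigs 10, 18 and 40. The secretome cores lay between -4.53 and -3.49 with a median of -3.81, and every secretome core was below every medium core. The difference was -2.55 ± 0.36 (SE; limma adjusted p = 0.00595), with -2.80 and -2.22 within series 1 and series 2. Of the 6 genes, CLDN3 kept its call under 18 of 25 alternative settings, SERPINE3 under 17 of 24, and the others under fewer.

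RPTN, repetin, a protein of cornifying epithelium, showed the largest difference of any called gene. Its medium levels were -0.63, -3.15 and -1.01 in pigs 10, 18 and 40, and its secretome levels ran from -8.41 through a median of -7.06 to -4.51. The difference was -5.04 ± 0.80 (SE; limma adjusted p = 0.0157). Only 2 of the 6 secretome cores had a signal well above background, so the low end of that range is near the detection limit of the probe. In the authors' deposited log2 values the RPTN difference was -0.85.

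COL17A1, the transmembrane collagen of hemidesmosomes, which anchor epithelial cells to their basement membrane, changed least. Its levels were -2.37, -2.49 and -2.02 in medium pigs 10, 18 and 40 and -3.52 to -2.80 (median -3.28) after secretome. The arms did not overlap, and the difference was -0.87 ± 0.15 (SE; limma adjusted p = 0.0253). The second COL17A1 probe did not share it, with a difference of 0.06 ± 0.30 (limma adjusted p = 0.967), so its probes disagree about this gene.

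The last pair are genes of the inflammatory response. The array's immunoresponsive 1 homolog is the enzyme by which activated macrophages make itaconate. Its levels were -4.64, -4.74 and -4.45 in medium pigs 10, 18 and 40, all well above background, and none of the 6 secretome cores was well above background. The probe thus passed the filter on low signals through the medium cores alone, so its call is not independent of that filter. Set against the lowest signal that was, it was at least 2.82-fold lower after secretome (limma adjusted p = 0.0250), with measured means of -4.61 ± 0.15 (SD, n = 3) and -7.12 ± 0.56 (SD, n = 6). ALOX15, which the array names ALOX12 and which oxidises arachidonic acid to lipid mediators in leukocytes and epithelia, had levels of 1.89, 3.84 and 4.03 in medium pigs 10, 18 and 40. The secretome cores spanned -0.34 to 1.6 with a median of 0.32. The difference was -2.76 ± 0.50 (SE; limma adjusted p = 0.0472), and the other ALOX15 probe read -3.63 ± 0.79 without passing (limma adjusted p = 0.116).

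**Figure D1:**
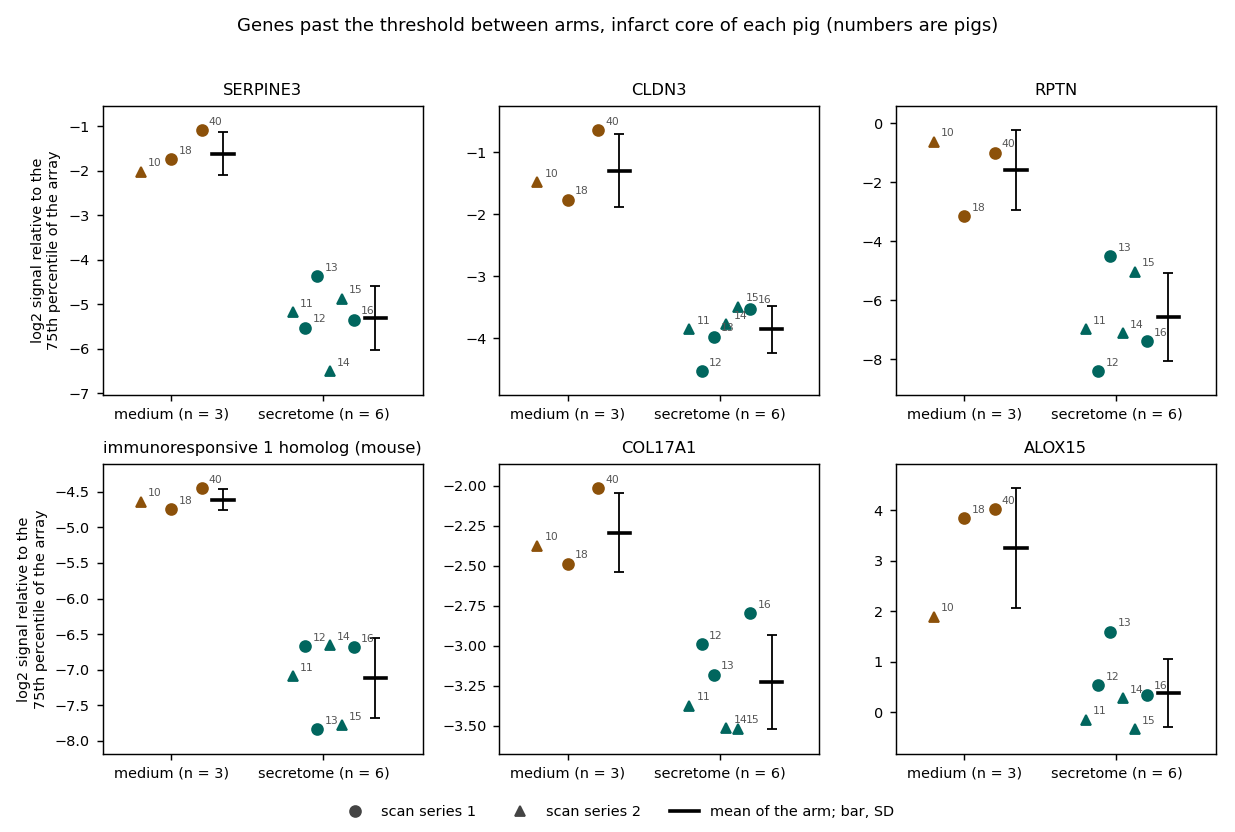
Level of the 6 called genes (log2 signal relative to the 75th percentile of the array) in the infarct core of each of 9 pigs, by arm, with circles for scan series 1 and triangles for series 2 and the mean and SD of each arm. In every panel the 3 medium cores lie above all 6 secretome cores, with differences from -0.87 (COL17A1) to -5.04 (RPTN).

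In the border zone of the same pigs the differences of these 6 genes ran the same way and were smaller, from -0.13 for COL17A1 to -1.79 for RPTN, and none passed. All 32 measured cytosolic ribosomal protein genes also read lower there, with a median of -0.34. The part of the weak border array of pig 40 in these values was not tested. The test of the difference between core and border did not separate the regions: limma called no probe of 33141 (0.0%), while 1990 had an unadjusted p under 0.05. For SERPINE3 the core difference minus the border difference was -2.49, with an unadjusted limma p of 0.000896 and an adjusted one of 0.777. In the border zone itself 4 probes were called (0.0121%) and 1 gene (0.0154%), MPZL3, a cell adhesion protein, at -1.53 ± 0.21 (SE; limma adjusted p = 0.00942), which read -0.70 in the core (limma adjusted p = 0.297).

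The next 5 genes in the order of p were GPX2, CLDN15, FCN1, GATA5 and UPK1B, all lower and none past the threshold. UPK1B, a uroplakin of urothelium and mesothelium, had levels of -0.04, 1.37 and 1.91 in medium pigs 10, 18 and 40 and -4.24 to -1.09 (median -2.96) after secretome. Its difference was -3.84 ± 0.77 (SE; limma adjusted p = 0.0775), and its other probe read -3.30 ± 0.61 (limma adjusted p = 0.0524). CLDN15, another claudin, read -1.12 ± 0.21 (limma adjusted p = 0.0559). GATA5, a transcription factor of the early heart, read -1.35 ± 0.27 (limma adjusted p = 0.0762). FCN1, a lectin of monocytes, read -2.13 ± 0.42 (limma adjusted p = 0.0755). None of these 4 genes had overlapping arms. GPX2, the glutathione peroxidase of epithelia, read -2.14 ± 0.40 (limma adjusted p = 0.0524), but its arms overlapped, and its level also differed between the scan series.

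Of the 16 mesothelium and epicardium markers 6 were measured: 5 were lower and 1 higher, with a median of -0.89 (all genes -0.05), and none was called. At an unadjusted p under 0.05 limma had 3 lower. CDH1, E-cadherin, the adhesion molecule of epithelia, read -1.89 ± 0.44 (limma adjusted p = 0.152) without overlap. WT1, the transcription factor that marks epicardium, read -1.13 ± 0.49 (limma adjusted p = 0.403). KRT8 read -0.66 ± 0.88 and KRT18, its keratin partner, read 2.12 ± 1.16, with pig 40 at -7.32 and a difference of 0.81 without that pig. UPK1B, described above among the genes with the smallest p, is one of the 6 markers and had the largest difference of them, -3.84. The mean level of the 6 markers was -0.45 to -0.33 in the medium cores and -1.70 to -1.08 in the secretome cores, so the arms did not overlap. UPK1B weighs most on that gap, so the gap does not show a shift of the whole list. Without pig 40 the median was -0.71. The secretome cores were thus below the medium cores in this mean as in the 6 called genes, and the part of these markers in those results was not tested.

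Macrophage markers read lower after secretome throughout the list, though none passed the threshold. All 24 of the 30 listed genes that could be measured had a negative difference, with a median of -0.69, against 3661 of 6500 genes and -0.05 overall. At an unadjusted p under 0.05 limma had 8 lower and none higher, and without pig 40 it had 4 lower. LYVE1, a hyaluronan receptor of tissue-resident macrophages and lymphatic vessels, had levels of -1.48, -1.47 and 0.25 in medium pigs 10, 18 and 40 and -3.63 to -1.85 (median -2.98) after secretome, with no overlap. Its difference was -1.91 ± 0.48 (limma adjusted p = 0.197). C1QA, a chain of the complement component that macrophages secrete, had levels of 5.14, 4.52 and 5.48 in the medium pigs and 3.37 to 4.33 after secretome. It too did not overlap, and it read -1.11 ± 0.31 (limma adjusted p = 0.255). CD74, the invariant chain of MHC class II, read -0.86 ± 0.24 (limma adjusted p = 0.255), with pig 18 at 3.51 inside the secretome range of 2.66 to 4.04. CD209, a lectin of dendritic cells and macrophages that is not in the list, read -2.88 ± 0.72 (limma adjusted p = 0.193). It was named for a large difference without overlap between arms, so it adds no separate support to the list.

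The macrophage median held its sign in other cuts of the same pigs: -0.57 without pig 40 (22 of 24 negative), -0.77 within series 1 and -0.62 within series 2. In the border zone, which holds the weak array of medium pig 40, it was -0.71. The mean level of the list was 1.82 to 2.66 in medium cores and 1.02 to 2.06 in secretome cores, so single pigs overlapped although the list median did not change sign.

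T and NK cell markers had the most negative median of the lists, -1.02, with all 27 measured genes (of 36) lower and 16 of them at an unadjusted limma p under 0.05; none was called. IFNG, interferon gamma, had levels of -4.07, -3.91 and -2.83 in medium pigs 10, 18 and 40 and -6.15 to -4.49 (median -4.95) after secretome, where 4 of 6 cores were well above background. The arms did not overlap, and the difference was -1.51 ± 0.37 (limma adjusted p = 0.173). CCL5, a chemokine of T cells, read -1.01 ± 0.34 (limma adjusted p = 0.336). KLRK1, an activating receptor of NK and CD8 T cells, read -1.65 ± 0.56 (limma adjusted p = 0.339), although its medium pig 10, at -0.65, lay within the secretome range of -2.44 to 0.68. The list was less even than that of macrophages: the median was -1.11 within series 1 and -0.46 within series 2, and -0.76 without pig 40, when 4 genes had an unadjusted p under 0.05. The mean level of medium pig 10, -1.79, lay within the secretome range of -2.82 to -0.74.

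The antigen presentation and interferon response lists had different medians in the 2 scan series. Of 25 measured antigen presentation genes 22 were lower, with a median of -0.60 (-0.83 within series 1 and -0.17 within series 2), and limma had 17 at an unadjusted p under 0.05. Without pig 40 the median was -0.38 and 4 genes had such a p. SLA-2, a swine MHC class I chain, read -0.83 ± 0.20 (limma adjusted p = 0.174), with -1.15 within series 1 and -0.29 within series 2. SLA-5 read -0.72 ± 0.21 (limma adjusted p = 0.276), with -1.11 and -0.07, while its other probe read -0.10 ± 0.70. Swine MHC genes are close copies of each other, so their probes may share signal. PSMB9, a subunit of the immunoproteasome, read -0.90 ± 0.27 (limma adjusted p = 0.297), with -1.37 and -0.07. The interferon list of 39 genes had a median of -0.28, which was -0.70 within series 1 and 0.21 within series 2. In GBP1, a guanylate-binding protein, pig 40 stood at 5.11 and pig 18 at 3.81, but pig 10 at 1.90 was inside the secretome range of 1.48 to 3.04. For GBP1, medium pigs 18 and 40 were thus above the secretome cores and pig 10 was not.

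Among cytokines and chemokines, 40 of 47 measured genes were lower, with a median of -0.48, and limma had 13 lower at an unadjusted p under 0.05. Without pig 40 the median was -0.30 and 4 genes had such a p. CCL3L1, a macrophage chemokine, read -0.86 ± 0.20 (limma adjusted p = 0.152), with -0.85 within series 1 and -0.91 within series 2. CCL4 read -0.59 ± 0.18 (limma adjusted p = 0.309). CXCL16 had levels of 3.47, 2.78 and 4.0 in medium pigs 10, 18 and 40 and 1.27 to 2.62 after secretome, without overlap. It was the only 1 of the 47 genes whose arms did not overlap, against 1.69% lower without overlap among all genes. In the inflammasome and Toll-like receptor list 22 of 25 genes were lower, with a median of -0.36, and none was called. RELA, the p65 subunit of NF-kappa B, had levels of 0.82, 1.26 and 1.43 in the medium pigs and 0.40 to 0.80 after secretome, and read -0.54 ± 0.12 (limma adjusted p = 0.143). Its other 2 probes did not share this, at -0.03 ± 0.25 and -0.20 ± 0.19 (limma adjusted p = 0.982 and 0.759). TLR7, a receptor for single-stranded RNA, read -1.32 ± 0.42 (limma adjusted p = 0.319). B and plasma cell markers had a median of -0.62 over 10 measured genes, complement and coagulation genes one of -0.40 over 30, and neutrophil markers one of -0.86 over 9. Without pig 40 these medians were -0.37, -0.25 and -0.29.

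**Figure D2:**
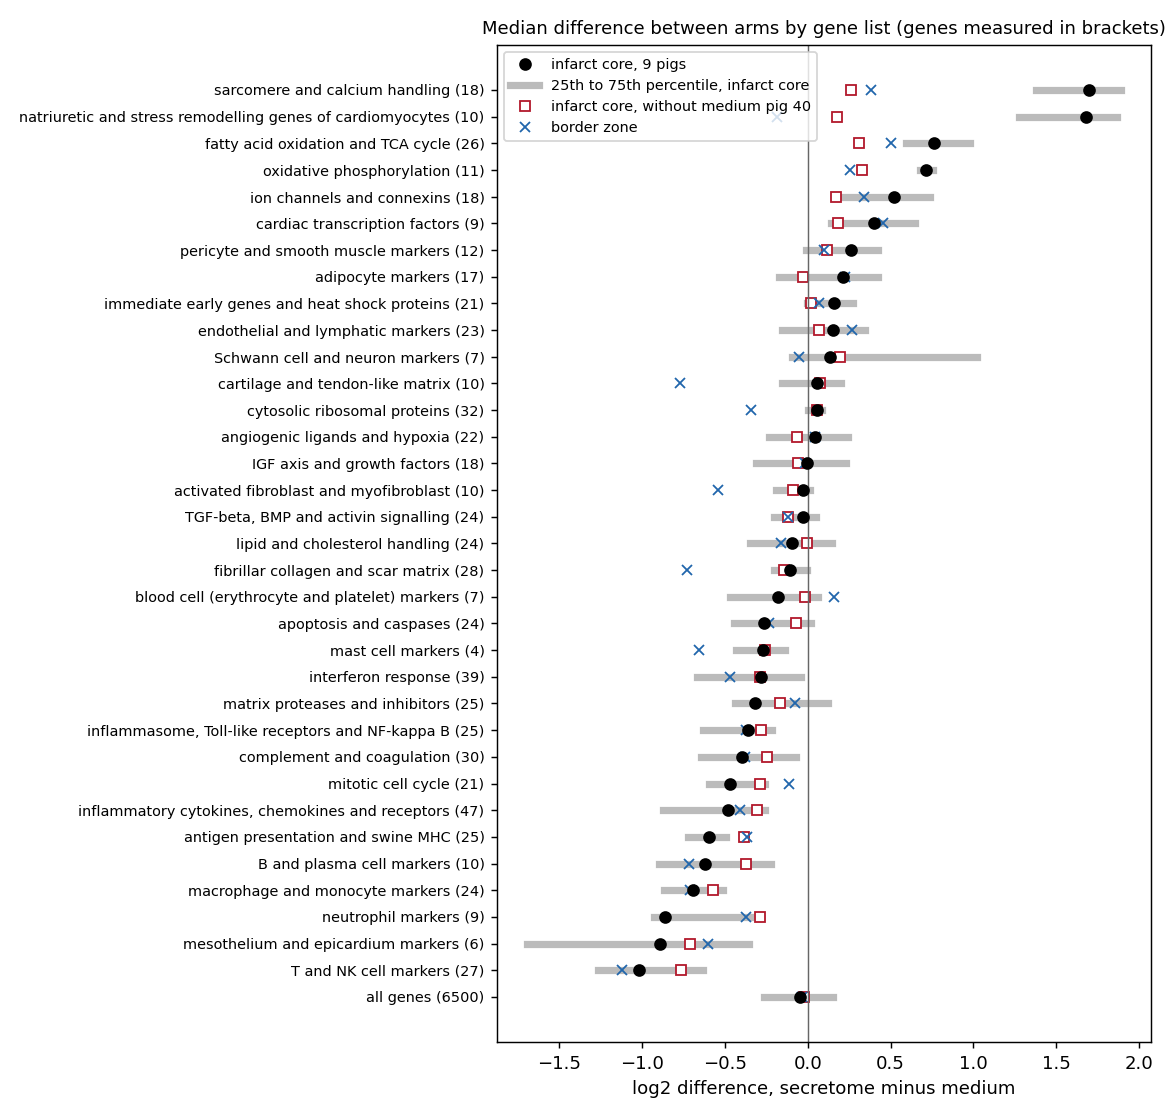
Median log2 difference, secretome minus medium, of 34 gene lists and of all 6500 genes (filled circles, infarct core; grey bars, 25th to 75th percentile of the genes; open squares, infarct core without medium pig 40; crosses, border zone). Heart muscle lists lie to the right (sarcomere 1.70) and immune lists to the left (T and NK cells -1.02), and without pig 40 the sarcomere median is 0.26 and that of T and NK cells -0.76.

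Heart muscle transcripts read higher after secretome in all 4 muscle lists, but by amounts that shrank without pig 40. All 18 measured sarcomere and calcium-handling genes were positive, with a median of 1.70 that became 0.26 without pig 40. MYH7, the slow myosin heavy chain of the ventricle, had levels of 10.26, 9.58 and 5.54 in medium pigs 10, 18 and 40 and 9.25 to 10.83 (median 9.97) after secretome. Pig 40 was low and the other medium cores lay within the secretome range. The difference of 1.44 ± 0.56 (limma adjusted p = 0.373) was 0.15 without pig 40. RYR2, the calcium release channel, read 2.07 ± 0.71 (limma adjusted p = 0.347) and 0.63 without it, and ACTN2, sarcomeric actinin, read 2.18 ± 0.76 (limma adjusted p = 0.352) and 0.56. The 10 measured natriuretic and stress genes of muscle had a median of 1.68, and 0.18 without pig 40.

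Metabolic genes of muscle moved less when pig 40 was left out. All 26 measured fatty acid oxidation and TCA cycle genes were positive, with a median of 0.76, which was 0.31 without pig 40, 0.67 within series 1 and 0.75 within series 2. OXCT1, which breaks down ketone bodies, read 1.22 ± 0.39 (limma adjusted p = 0.321). PPARGC1A, a coactivator of mitochondrial genes, read 1.91 ± 0.69 (limma adjusted p = 0.357). All 11 oxidative phosphorylation genes were positive, with a median of 0.71 that was 0.33 without pig 40. No gene of these lists was called, and without pig 40 limma had none at an unadjusted p under 0.05.

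The natriuretic peptides, hormones that strained heart muscle secretes, had a wide spread between pigs. NPPA had levels of 5.44, 6.05 and -2.90 in medium pigs 10, 18 and 40 and 2.42 to 6.61 (median 4.16) after secretome. Its difference of 1.32 ± 1.40 (limma adjusted p = 0.795) became -1.33 without pig 40. NPPB had levels of 7.10, 7.69 and 0.43 in the medium pigs and 5.99 to 8.47 after secretome, and its 1.87 ± 1.57 (limma adjusted p = 0.708) became -0.56. The sign for both thus depended on 1 animal.

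**Figure D3:**
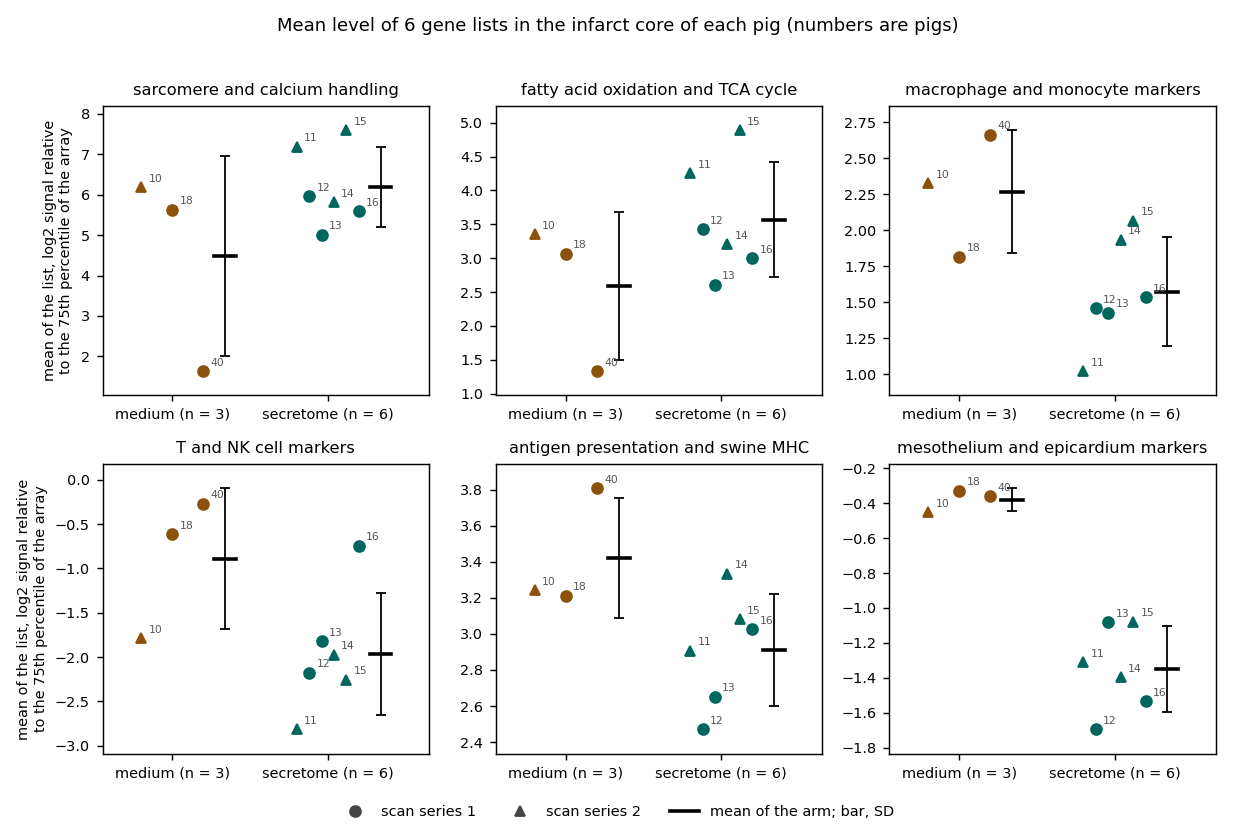
Mean level of 6 gene lists (log2 signal relative to the 75th percentile of the array) in the infarct core of each of 9 pigs, by arm, with circles for scan series 1 and triangles for series 2 and the mean and SD of each arm. Pig 40 is far below the other cores in sarcomere genes (1.63), while for mesothelium markers the 3 medium cores (-0.45 to -0.33) lie above all secretome cores (-1.70 to -1.08).

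Scar matrix itself did not separate the arms. Of 28 measured collagen and matrix genes 21 were lower and 7 higher, with a median of -0.11, none called and none at an unadjusted p under 0.05. The median was 0.14 within series 1 and -0.65 within series 2. COL1A2, a chain of type I collagen, read -0.24 ± 0.54 (limma adjusted p = 0.927), with levels of 7.13, 6.49 and 6.86 in the medium pigs and 5.84 to 7.30 after secretome. POSTN, a matrix protein of activated fibroblasts, read -0.11 ± 0.83 (limma adjusted p = 0.979), and FN1, fibronectin, read -0.57 ± 0.61 (limma adjusted p = 0.795). Activated fibroblast genes had a median of -0.03 over 10 genes (-0.09 without pig 40). Among matrix proteases ADAMTS5, which cleaves the proteoglycans of cartilage and tendon, read -0.79 ± 0.22 (limma adjusted p = 0.255) without overlap, and 0.42 in the border zone. The mitotic cell cycle list had 19 of 21 genes lower, with a median of -0.47 (-0.29 without pig 40), led by KIF11, a spindle motor, at -1.75 ± 0.62 (limma adjusted p = 0.353).

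The higher side held no called gene and one called probe, TC593207, which has no gene name on the array. Its levels were -3.81, -3.60 and -4.22 in medium pigs 10, 18 and 40 and -3.12 to -1.95 (median -2.35) after secretome. The difference was 1.38 ± 0.25 (SE; limma adjusted p = 0.0405), with 1.38 within series 1 and 1.37 within series 2. Its scar minus normal difference was -1.13. The call was kept under 10 of 24 alternative settings: without pig 40 it was lost (1.22, limma adjusted p = 0.317), and under normexp background correction the difference turned to -0.13 (limma adjusted p = 0.792).

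IGF2, insulin-like growth factor 2, a growth and survival factor, had the second smallest p of the genes on the higher side and did not pass. Its levels were 4.14, 4.58 and 3.95 in medium pigs 10, 18 and 40 and 5.22 to 6.93 (median 5.59) after secretome. The arms did not overlap, and secretome pigs 11 and 14 were the highest. The difference was 1.62 ± 0.38 (limma adjusted p = 0.152), with 1.18 within series 1, 2.29 within series 2, 1.58 without pig 40 and 1.29 in the border zone. Its other 4 probes read 1.51 to 1.70. The other 17 members of the IGF axis and growth factor list did not share a direction: 8 were higher and 9 lower, with a median of -0.01. IGFBP1 read -0.44 ± 0.15 (limma adjusted p = 0.337) and ERBB2, a growth factor receptor, -0.55 ± 0.18 (limma adjusted p = 0.334).

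PPP2R2B, a regulatory subunit of a protein phosphatase, read 1.26 ± 0.27 (limma adjusted p = 0.106), with 1.93 within series 1 and 0.21 within series 2. PRNP, the prion protein, had levels of 3.70, 3.65 and 3.37 in the medium pigs and 3.92 to 4.26 after secretome, and read 0.50 ± 0.13 (limma adjusted p = 0.206). CDH19, an adhesion protein of Schwann cells, read 1.05 ± 0.27 (limma adjusted p = 0.215). The Schwann cell and neuron list had 5 of 7 measured genes higher, with a median of 0.13. PROX1, the transcription factor of lymphatic endothelium, read 1.27 ± 0.37 (limma adjusted p = 0.276), and 0.68 without pig 40. The endothelial and lymphatic list had 14 of 23 genes higher and 9 lower, with a median of 0.15 (0.07 without pig 40). Its smallest p belonged to LYVE1, a gene it shares with the macrophage list, which was lower after secretome, -1.91 ± 0.48 (limma adjusted p = 0.197). PROX1 and LYVE1 thus differed in sign, and the list shows no common direction of lymphatic genes.

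Of 30 genes chosen for their part in apoptosis, inflammation, repair and heart muscle, 25 were measured, and none passed in the fit across all probes. An exact two-sided permutation test over the 84 ways to assign the arms, whose smallest p is 0.0119, was run on each of the 25. CASP1, the inflammasome protease, had levels of 1.07, 1.14 and 2.08 in medium pigs 10, 18 and 40 and -0.00 to 0.83 (median 0.52) after secretome. The arms did not overlap, and the exact p was 0.0119, or 0.298 after adjustment over the 25 genes; permuted within scan series it was 0.05. The fitted difference was -0.92 ± 0.32 (limma adjusted p = 0.347), and -1.61 in the border zone. MEF2C, a transcription factor of heart muscle, had levels of 2.14, 0.87 and 0.47 in the medium pigs and 1.00 to 2.93 (median 1.67) after secretome. It read 0.45 ± 0.20 (limma adjusted p = 0.414; exact p = 0.286) and 0.28 without pig 40.

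TNF had levels of -1.17, 0.43 and 0.56 in medium pigs 10, 18 and 40 and -1.27 to 0.04 (median -0.54) after secretome. Pigs 18 and 40 were above every secretome core and pig 10 was not, so the difference of -0.31 ± 0.27 (limma adjusted p = 0.736) was -0.67 within series 1 and 0.20 within series 2. IL1B read -0.91 ± 0.59 (limma adjusted p = 0.599), and IL6 read 0.26 ± 0.72 (limma adjusted p = 0.940). VEGFA, the main growth factor of vessels, read 0.51 ± 0.26 (limma adjusted p = 0.475), and BAX, a pore-forming protein of apoptosis, read -0.80 ± 0.38 (limma adjusted p = 0.443). In the apoptosis list 16 of 24 genes were lower, with a median of -0.26 that was -0.07 without pig 40.

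**Figure D4:**
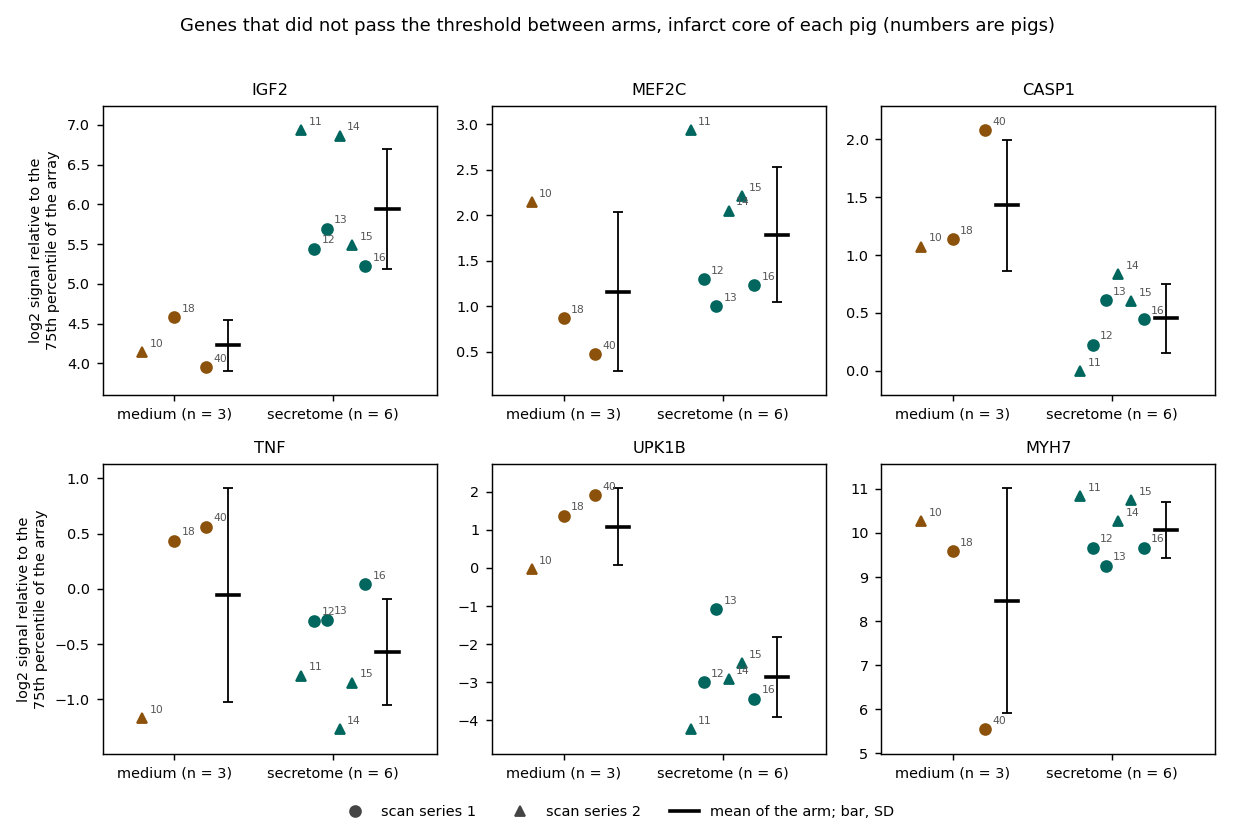
Level of 6 genes that did not pass the threshold (log2 signal relative to the 75th percentile of the array) in the infarct core of each of 9 pigs, by arm, with circles for scan series 1 and triangles for series 2 and the mean and SD of each arm. IGF2, CASP1 and UPK1B do not overlap between arms, while MEF2C and TNF overlap and in MYH7 (difference 1.44) pig 40 lies at 5.54, far below the other cores.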

How the data were processed

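Per the file headers, the arrays were read with Agilent Feature Extraction 10.7.3.1, and the deposited intensity is its background-corrected, 1-colour processed signal; per the labels, 100 ng of total RNA with an integrity number above 6 was labelled with Cy3. The authors' deposited table of log2 values (33348 probes, limma 3.14.4 per the submitters' processing notes, other steps not given in the sources used here) was used as an alternative.

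Here the log2 intensity minus the 75th percentile of each array was fitted with limma 3.58.1 in R 4.3.3 over all 24 arrays, with a mean per region and arm, scan series as a fixed term (series as read from the scan times in the headers, which say nothing of extraction) and pig as a random block (correlation 0.2072). Probes well above background on at least 3 of 9 infarct cores were kept (33141), with p-values adjusted over all of them. Control spots and outlier-flagged spots were left out. In 42 of the 33141 probes a core value was missing for that reason, and these are not in the counts of overlap. Names came from RefSeq accessions (9264 probes), gene IDs (1291), the array's names or descriptions (4349 in all), while 28671 probes had none; each gene is its brightest kept probe. Named are up to 10 genes a direction with the smallest p, the 3 leading members of each list, 30 chosen genes and the 10 largest differences without overlap. The genes and lists were chosen with earlier results of these data known. The arms share no pig, so no pairing exists between them. Each pig is 1 array per region. The limma p-values rest on 1 spread per probe, estimated over all 24 arrays. That spread takes in border zones and normal regions, and is not the spread between the 9 infarct cores alone. The fit was tested on simulated data. Some genes that the naming rule picks are not reported here.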

Additional observations from a re-analysis of the deposited data

Results flagged for a closer look

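Among the 34 list means in the 6 secretome cores, 2 single animals stood apart from the rest of their arm by Dixon's test, and chance flags about 1 in 20 groups. For matrix proteases and their inhibitors, pig 14 had a mean level of 2.37, against 1.75 to 1.94 in the other 5 secretome pigs and 2.0 to 2.36 in the medium pigs. For lipid and cholesterol handling, pig 15 had a mean level of 1.67, against 1.11 to 1.30 in the other 5.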

How the results depend on the processing

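Against the 15 probes and 6 genes called, no probe and no gene passed in limma without the scan series term (0 probes, 1589 at an unadjusted p under 0.05), within scan series 1 alone (0; 2962), on the 9 infarct cores alone with (0; 2720) or without (0; 1150) the series term, or after normexp background correction (0; 3053), which also moved the median of all probes from -0.06 to -0.41. Scan series 2 alone gave 30 probes from 1 medium pig, which is assumed to vary like the other groups. The authors' deposited values gave 9, a filter of all 9 infarct cores 4 probes and 2 genes, no filter 28, estimated array weights 25, and the mean of all probes of a gene 16 genes. Without the replicate block for pig there were 22; the arms share no pig, so no pairing of replicates could be tested. Leaving out single pigs gave 3 (pig 40) to 46 (pigs 10 and 18) probes and 0 (pig 40) to 13 (pig 18) genes. None of the 6 genes changed sign in the settings that gave it a value, but the size of the difference did change. In the authors' deposited values SERPINE3 read -0.67, CLDN3 -0.795 and RPTN -0.85, all past the threshold. The other called genes had no value there. The higher probe TC593207 turned to -0.13 under normexp. The difference between core and border called 0 probes under each setting tried. The causes of these changes were not tested. Signal over background limits RPTN and the immunoresponsive 1 homolog, whose secretome levels were near the detection limit.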

Other observations

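Of the 15 called probes, 8 had no gene name and 1 was a further probe of TGS1, an RNA cap methyltransferase, which was not the brightest of that gene and read -0.996 ± 0.163 (limma adjusted p = 0.0223). The unnamed probe AK236619 had the smallest p, with a difference of -2.24 ± 0.20 (limma adjusted p = 2.28e-05), and with the unnamed AJ647670 it still passed without pig 40 (limma adjusted p = 0.00141 and 0.0335). The level of AK236619 also differed between scan series: medium pigs 18 and 40 stood at -1.59 and -1.34 and medium pig 10 at -5.28. It was well above background in only 2 of 3 medium and 3 of 6 secretome cores, and its arms overlapped. AJ647670 was well above background in 3 of 3 medium and 3 of 6 secretome cores. Its arms overlapped too, with medium pig 10 at -4.18 and secretome pig 12 at -4.13. Secretome levels of AJ647670 were -7.55 to -6.57 in series 2 and -4.47 to -4.13 in series 1. AK236619 also passed in the border zone, at -1.74 ± 0.20 (SE; limma adjusted p = 0.00156). KCNV1, a potassium channel subunit, was well above background in 3 of 3 medium cores and 1 of 6 secretome cores and read -4.32 ± 0.93 (limma adjusted p = 0.115), so the size of this difference rests mostly on signals not well above background. CES1, a carboxylesterase of liver and macrophages, had levels of 6.58, 2.34 and 4.25 in medium pigs 10, 18 and 40 and 0.70 to 1.80 after secretome, and read -3.28 ± 0.84 (limma adjusted p = 0.208). HBB, a haemoglobin chain, was well above background in no medium core and in 4 of 6 secretome cores. Its probe thus passed the filter on low signals through the secretome cores alone, and HBB was not called. The 32 measured cytosolic ribosomal protein genes had a median of 0.06.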
